A study of Mus musculus with 8 samples.

Results

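The protease inhibitor genes of the mouse esophageal epithelium were described in cells sorted by their content of autophagic vesicles. Members were chosen by gene symbol from a table of 55276 genes: the numbered Serpinb, Spink, Wfdc, Cst and Stfa genes and Cstb, together with Slpi, Cstdc4, Spint1 and Spint2, with pseudogenes left out by name. This gave 76 genes, of which 28 were clade B serpins, 12 were Kazal-type Spink genes, 19 held the WAP domain, 15 were cystatins or stefins and 2 were Kunitz-type Spint genes. No read was counted for 19 of them in any library, 57 had counts, and 36 had enough counts to be tested.

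Protease inhibitors keep the proteases of a stratified epithelium in check as its cells move from the basal layer to the surface. Clade B serpins are mostly intracellular proteins that trap serine or cysteine proteases by a change of their own shape. Spink5, Slpi and the Wfdc proteins are secreted and block serine proteases such as the kallikreins and leukocyte elastase, cystatins and stefins block papain-like cysteine cathepsins, and the Spint proteins sit in the membrane and inhibit matriptase and related enzymes. In squamous epithelium several of these genes, such as Spink5 and the Serpinb3 genes, are known as part of the differentiation programme of the suprabasal layers.

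RNA was sequenced in bulk from esophageal epithelium of C57BL6 mice aged 14 to 15 weeks, 2 females (Female1, Female2) and 2 males (Male1, Male2). The epithelial layer was peeled off the muscle and dissociated with dispase and trypsin. Live cells (DAPI negative) with integrin-b1 on their surface were then separated by their staining with Cyto-ID, which labels autophagic vesicles. Weakly stained cells are called Cyto-ID Low and strongly stained cells Cyto-ID High. Each of the 4 animals gave 1 library of each fraction, which makes 8 libraries with 4 in each group. The labels name no genotype beyond the strain. They call the sorted cells squamous cells and, in the protocol, basal cells. A gene is said to rise or fall when edgeR's quasi-likelihood test, with sex as a covariate and Benjamini-Hochberg adjustment over 17344 genes, gave an adjusted p under 0.05. Rising or falling always means High against Low.

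The promoters of the serpin cluster on chromosome 1 are shown first, because this run of neighbouring genes holds most of the largest increases and also genes that fell. The bases upstream of the RefSeq transcription start (build GRCm38.p6) are printed 5′ to 3′ on the strand of the gene, with matches to the AP-1 motif TGANTCA or the TATA motif TATAAA on either strand in capitals.
Serpinb3a, chr1:107052304-107052553, minus strand: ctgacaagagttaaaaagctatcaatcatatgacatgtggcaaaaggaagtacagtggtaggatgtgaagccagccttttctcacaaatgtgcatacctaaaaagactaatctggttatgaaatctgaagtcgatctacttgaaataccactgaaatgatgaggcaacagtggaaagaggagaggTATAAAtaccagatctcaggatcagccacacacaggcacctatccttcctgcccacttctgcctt
Serpinb3b, chr1:107161115-107161364, minus strand: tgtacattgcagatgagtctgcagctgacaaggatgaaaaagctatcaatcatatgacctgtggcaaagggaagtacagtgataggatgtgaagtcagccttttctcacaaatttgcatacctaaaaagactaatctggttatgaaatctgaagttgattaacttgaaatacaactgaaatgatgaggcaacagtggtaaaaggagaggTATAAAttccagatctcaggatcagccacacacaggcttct
Serpinb3c, chr1:107278372-107278621, minus strand: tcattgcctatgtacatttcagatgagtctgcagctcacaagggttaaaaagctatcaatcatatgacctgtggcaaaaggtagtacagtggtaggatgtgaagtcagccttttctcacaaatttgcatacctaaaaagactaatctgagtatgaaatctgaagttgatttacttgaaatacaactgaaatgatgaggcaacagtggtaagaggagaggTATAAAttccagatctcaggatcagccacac
Serpinb3d, chr1:107083507-107083730, minus strand: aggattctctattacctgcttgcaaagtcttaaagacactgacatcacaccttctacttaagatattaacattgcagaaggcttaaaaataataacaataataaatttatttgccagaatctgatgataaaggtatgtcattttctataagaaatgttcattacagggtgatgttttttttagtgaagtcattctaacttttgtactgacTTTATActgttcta
Serpinb12, chr1:106934199-106934448, plus strand: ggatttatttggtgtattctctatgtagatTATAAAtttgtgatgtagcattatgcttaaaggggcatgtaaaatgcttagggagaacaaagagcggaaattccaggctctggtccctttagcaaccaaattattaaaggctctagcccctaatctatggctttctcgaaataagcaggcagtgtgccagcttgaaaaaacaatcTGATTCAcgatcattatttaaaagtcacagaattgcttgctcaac
Serpinb10, chr1:107528753-107529002, plus strand: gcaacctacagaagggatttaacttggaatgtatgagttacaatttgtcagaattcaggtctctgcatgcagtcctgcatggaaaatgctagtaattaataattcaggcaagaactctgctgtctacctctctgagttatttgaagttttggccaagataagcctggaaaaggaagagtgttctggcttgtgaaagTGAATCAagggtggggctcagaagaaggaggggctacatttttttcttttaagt
The first 3 belong to closely related paralogs that rose together, Serpinb3d is a paralog with hardly any counts, Serpinb12 is an abundant serpin that rose, and Serpinb10 had the largest decrease among the serpins. The Serpinb3d window leaves out the last 26 bases before the RefSeq start, which GENCODE release M21 places in an exon. The Serpinb10 window lies within the Serpinb2 gene, outside annotated exons. Over a global alignment of the full 250 bases, Serpinb3b and Serpinb3c were 88.1% identical, Serpinb3a and Serpinb3b 77.7%, and Serpinb3a and Serpinb3c 72.2%. Gaps, also those at the ends, counted as differences. The windows of these 3 genes are shifted against each other through their annotated starts, which lowers the values by an unlike amount in each pair. The values are thus not a ranking of the pairs by likeness of sequence. Serpinb3d shared 47.7% to 52.4% with these 3, close to the 47.8% to 52.2% between these 3 and Serpinb12 or Serpinb10. A TATAAA match lay 65, 41 and 31 bases before the annotated start of Serpinb3a, Serpinb3b and Serpinb3c. Serpinb3d held one on the other strand, 40 bases before its RefSeq start. The letters after the match are nearly the same in Serpinb3a, Serpinb3b and Serpinb3c, so their distances differ through the annotated starts. The bases just after the RefSeq start of Serpinb3a were found in no GENCODE M21 transcript of that gene. Of the 11 promoters of this cluster in the RefSeq table, 7 held TGANTCA (Serpinb2, Serpinb5, Serpinb7, Serpinb8, Serpinb10, Serpinb11 and Serpinb12) and 7 held TATAAA (Serpinb2, Serpinb3a, Serpinb3b, Serpinb3c, Serpinb3d, Serpinb7 and Serpinb12), against 6.75% and 12.4% of 32851 mouse promoters of the same length. Of the 4 other motifs searched on both strands, the C/EBP letters TTNCNNAA were in 8 of the 11 (36.8% of all promoters), the Klf letters CCNCNCCC in 3 (45.9%), and the Grhl letters AACNGGTT (1.79%) and the Ets letters CCGGAA (3952 of the 32851) in 0. The AP-1 letters stood before genes that rose and before Serpinb8 and Serpinb10, which fell. Serpinb13 had no promoter in the RefSeq table. Of the 28 tested inhibitors whose promoter was searched, only genes of this cluster held TGANTCA or TATAAA. A match describes letters and is not a measured binding site.

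Libraries held 26285150 to 29301054 counts each. Levels are CPM (the share of a library's counts, in the usual per-million unit) scaled with TMM factors (trimmed mean of M values), which correct for a few very abundant genes taking up reads. The factors were 1.16 to 1.30 in Low and 0.679 to 0.944 in High. All 12 basal keratinocyte markers were lower in High (summed level 22550 to 26910 CPM in Low, 2903 to 4634 CPM in High), all 6 proliferation markers were lower (338 to 1007 CPM in Low, 80.3 to 196 CPM in High), 14 of 15 tested suprabasal markers were higher (11080 to 29420 CPM in Low, 156900 to 262100 CPM in High), and Itgb1, which encodes the sort antigen, fell from 370 ± 31.6 to 68.2 ± 18.3 CPM (SD, n = 4 each). The defining markers of basal cells were thus detected in both fractions, at a lower level in High. The part of this shift between layers in the inhibitor results was not tested, and in bulk RNA fewer cells of a type and less RNA per cell cannot be told apart.

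Of the 36 tested inhibitors, 24 differed between the fractions, where 48.7% of all tested genes did. The increases numbered 18 (23.4% of all tested genes rose) and the decreases 6 (25.3% of all tested genes fell). In 17 of the 18 the rise was at least 2-fold (13.3% of all tested genes) and in 5 of the 6 the fall was at least 2-fold (15.3%). High and Low did not overlap in 23 inhibitors (48.6% of all tested genes), 18 with every High library above every Low library (23.6%) and 5 the other way (24.9%). All 18 increases went in 1 direction in 4 of 4 animals, as did all 6 decreases. The median log2 fold change was 0.57 over the 36 inhibitors and -0.09 over all tested genes. With libraries scaled by total counts only, both medians moved down, to 0.004 and -0.64, the inhibitors called were 17 higher and 6 lower, and 20.5% of the 10708 genes called were higher, in place of 48.0%. With the animal as a replicate block the same 24 inhibitors were called, and 53.8% of all tested genes.

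**Figure D1:**
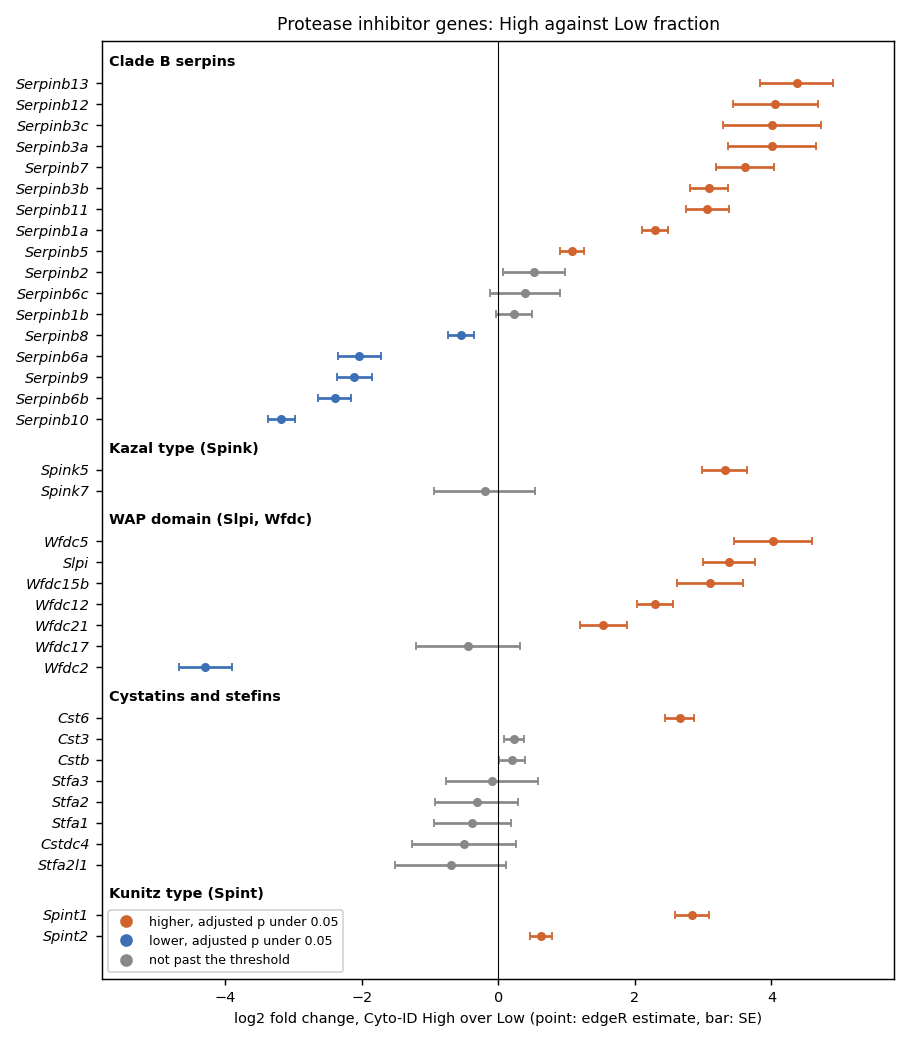
Log2 fold change of Cyto-ID High over Low for the 36 tested inhibitor genes, grouped by family. Points are edgeR estimates from 4 libraries per fraction, bars are their standard errors (SE), and colours give the call. Increases run up to 4.37 (Serpinb13) and the largest decrease is -4.29 (Wfdc2).

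Summed over all 76 genes, inhibitor transcripts stood at 4832, 2746, 4283 and 4765 CPM in the Low libraries of Female1, Female2, Male1 and Male2, and at 12760, 14840, 12130 and 14990 CPM in their High libraries. Every High library lay above every Low library, and the share of all counts was 0.358% to 0.595% in Low and 1.02% to 1.20% in High. Clade B serpins made up most of the sum in both fractions (2834 ± 911 CPM in Low, 7395 ± 1148 CPM in High). The Kazal family was at 176 ± 70.6 CPM in Low and 1726 ± 140 CPM in High, and the WAP family at 396 ± 131 and 3043 ± 596 CPM. Sums were not tested. The cystatin and stefin family was at 410 ± 64.2 CPM in Low and 541 ± 75.6 CPM in High, and Cstb and Cst3 made up most of it. The sums overlapped (494 CPM in the Low library of Female1, 487 CPM in the High library of Female2), as did the shares of all counts without TMM scaling, at 0.0439% to 0.0608% in Low and 0.0342% to 0.0615% in High.

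Levels of different genes were compared per kilobase of annotated exon. In Low the highest were Serpinb2 at 702 ± 389 CPM per kb, Cstb at 334 ± 69.9, Slpi at 224 ± 100.1, Serpinb5 at 161 ± 12.6 and Stfa3 at 118 ± 41.2. In High the order of these levels was Slpi at 2322 ± 460 CPM per kb, Serpinb2 at 996 ± 116, Serpinb3a at 868 ± 230, Serpinb12 at 757 ± 149, Cstb at 384 ± 49.3 and Spink5 at 360 ± 29.6. In High, Slpi stood above Serpinb2 and Serpinb12 above Cstb by more than the sum of their SDs, and the other neighbours named in both orders lay within it. Serpinb3a, Serpinb12 and Spink5 ranked 10, 11 and 12 in Low, while Wfdc2 went from rank 7 in Low to rank 26 in High and Serpinb10 from rank 8 to rank 22.

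Clade B serpins were the largest family, with 17 of 28 tested, of which 9 rose, 5 fell and 3 did not pass the test. The 3 Serpinb3 paralogs are the mouse relatives of the squamous cell carcinoma antigens, inhibitors of cysteine cathepsins. Serpinb3a, on the minus strand of chromosome 1 (GRCm38, chr1:107045587-107052303), stood in Low at 49.3, 120.0, 16.3 and 166 CPM (Female1, Female2, Male1, Male2), and in High at 1156, 1958, 1177 and 1373 CPM in the same order of animals. Serpinb3c was at 5.07, 14.2, 1.55 and 26.8 CPM in Low and 138, 242, 175 and 199 CPM in High. Serpinb3b was at 4.91, 5.83, 2.73 and 6.97 CPM in Low and 39.3, 58.4, 40.5 and 36.7 CPM in High. The highest Low library was 10.2 times the lowest for Serpinb3a, 17.3 times for Serpinb3c and 2.55 times for Serpinb3b, and no High library of the 3 paralogs overlapped a Low one. The log2 fold change was 4.00 for Serpinb3a and 3.09 for Serpinb3b, both higher in High. For Serpinb3c it was 4.01 (SE 0.72, edgeR adjusted p = 0.00125). Part of their sequence cannot be assigned to 1 gene: 15.1% of the 50-base stretches of Serpinb3a, 14.7% of those of Serpinb3b and 12.2% of those of Serpinb3c also occur in other annotated transcripts, so the split of reads among them is uncertain. Serpinb3b and Serpinb3c also overlap over 35 exonic bases of the same strand. Serpinb3d, between them on the chromosome, had at most 8 counts in a library and was not tested.

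Serpinb12, an inhibitor of trypsin-like proteases, showed the same course. Its level in Low was 69.7, 147, 21.6 and 217 CPM in Female1, Female2, Male1 and Male2, and in High 1613, 2417, 1640 and 1897 CPM. No stretch of 50 bases of Serpinb12 occurs in another GENCODE M21 transcript. The log2 fold change was 4.06 (SE 0.62, edgeR adjusted p = 0.000493), a 16.6-fold rise. Serpinb12 made up 0.668% to 9.90% of the serpin transcripts in Low and 24.6% to 27.2% in High. Serpinb13, known to block cathepsin L, was far rarer, at 0.185, 1.04, 0.186 and 1.06 CPM in Low and 11.1, 17.3, 11.4 and 12.3 CPM in High. The fractions did not overlap, and its log2 fold change of 4.37 (edgeR, SE 0.53, adjusted p = 0.000121) was the highest estimate among the inhibitors. It was within the SE of Serpinb12, Wfdc5, Serpinb3c and Serpinb3a.

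Serpinb7, which is mutated in an inherited palmoplantar keratosis, and Serpinb11 rose as well. Serpinb7 was at 1.67, 3.24, 1.15 and 4.83 CPM in Low and 27.4, 46.8, 28.8 and 30.9 CPM in High, a log2 fold change of 3.61. Serpinb11 was at 13.8, 17.4, 6.65 and 19.6 CPM in Low and 114, 161, 98.4 and 110.3 CPM in High, a log2 fold change of 3.06. For both genes the lowest High library was several times the highest Low library. Serpinb1a, the mouse counterpart of the leukocyte elastase inhibitor and a gene of the other serpin cluster on chromosome 13, was at 63.4, 61.4, 48.1 and 76.8 CPM in Low and 277, 353, 266 and 327 CPM in High, a log2 fold change of 2.29. Serpinb5 (maspin), a serpin that does not inhibit proteases, was abundant in both fractions. It stood at 444, 393, 456 and 474 CPM in Low and 801, 1131, 866 and 935 CPM in High. The groups did not overlap, and the rise was the smallest among the serpins that rose, with a log2 fold change of 1.08.

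Serpinb2, an inhibitor of urokinase, had the highest mean level per kilobase of the inhibitors in Low, within the spread of Cstb. Its values were 2411, 361, 2162 and 1659 CPM in Low and 2088, 2397, 2175 and 2700 CPM in High. Female2 was low in the Low fraction only, and the groups overlapped. In that library markers of gastric epithelium summed to 19.9 CPM, against 0.664 to 1.39 CPM in the other Low libraries, while the High library of the same animal had 117 CPM of them and a Serpinb2 level among the other High libraries. The part of gastric transcripts in the low value was not tested. The log2 fold change was 0.52 (SE 0.45, edgeR adjusted p = 0.382), which did not pass the test. Without the Low library of Female2 it was 0.18, without the Low library of Female1 it was 1.12 and with total counts only it was -0.037, none of which passed. Serpinb1b (2.54 ± 0.527 CPM in Low, 3.02 ± 0.840 in High, log2 fold change 0.23) and Serpinb6c (1.11 ± 0.479 and 1.41 ± 0.944 CPM, log2 fold change 0.39) did not pass either.

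**Figure D2:**
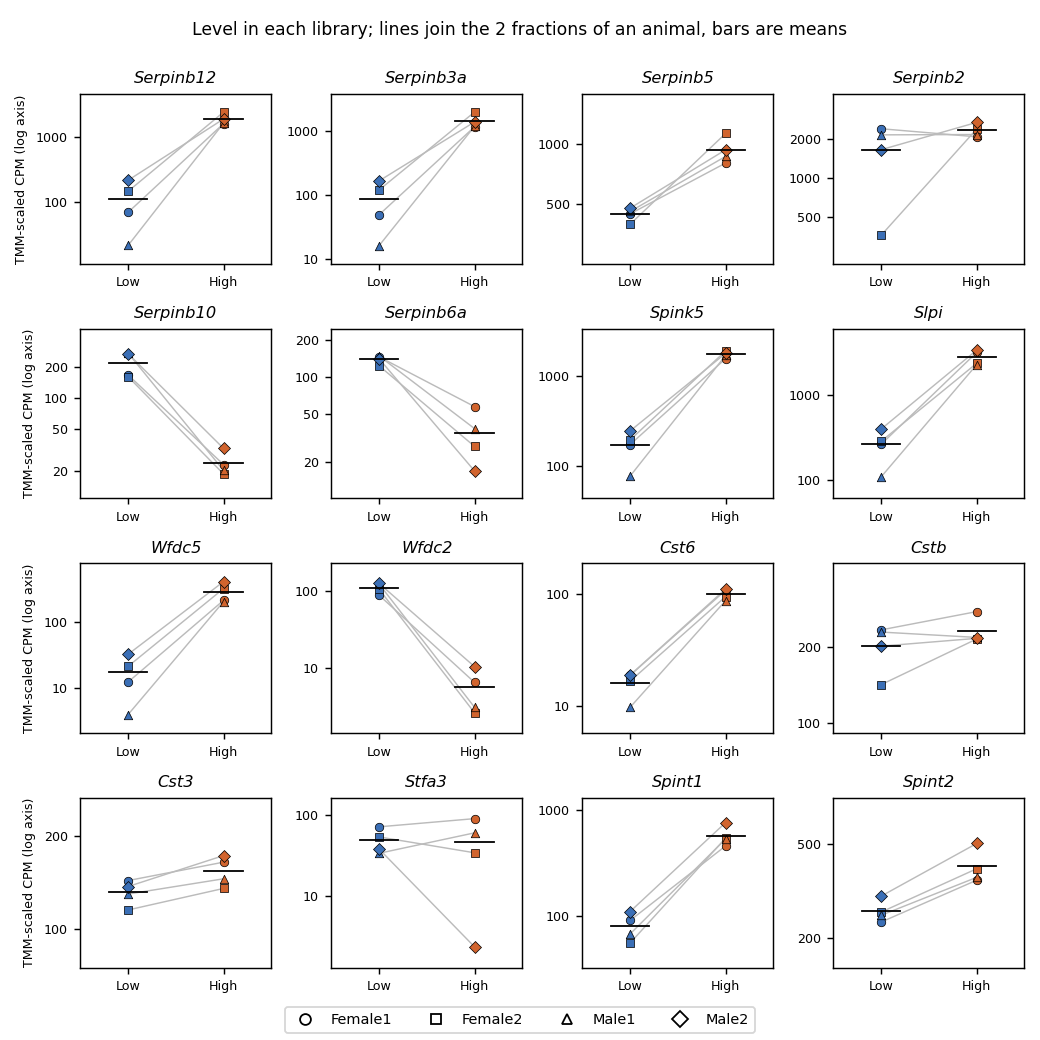
TMM-scaled CPM of 16 inhibitor genes in each library, on a log axis. Symbols mark the animals, grey lines join the 2 fractions of an animal and black bars are the means of 4 libraries. Serpinb12, Serpinb3a, Spink5, Slpi and Wfdc5 are higher in every High library, Serpinb10, Serpinb6a and Wfdc2 lower, and Serpinb2, Cstb, Cst3 and Stfa3 overlap.

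The serpins that fell were Serpinb10, Serpinb6b, Serpinb9, Serpinb6a and Serpinb8. Serpinb10 (bomapin) was at 168, 162, 274 and 270 CPM in Low and 22.9, 18.6, 20.1 and 32.8 CPM in High. All High libraries lay below all Low libraries, and the log2 fold change was -3.18 (SE 0.20, edgeR adjusted p = 1.27e-05). Serpinb10 overlaps Serpinb2 on the same strand over 291 exonic bases, so reads of this stretch cannot be assigned. It is 8.34% of the exons of Serpinb10 and 12.4% of those of Serpinb2. The annotation calls Serpinb10 a polymorphic pseudogene.

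Serpinb6a, an inhibitor of trypsin-like proteases and cathepsin G, was at 146, 123, 148 and 141 CPM in Low and 57.2, 27.0, 37.8 and 17.0 CPM in High. It was steady in Low and spread over a 3.36-fold range in High, with no overlap and a log2 fold change of -2.04. Its exons are overlapped on the other strand by Nqo2 (14.1% of them), 1110046J04Rik (10.8%) and Ripk1 (4.46%), and whether strand was used in counting is not given in the sources used here. Serpinb6b was at 9.91, 14.6, 16.7 and 18.2 CPM in Low and 2.20, 3.66, 2.59 and 2.67 CPM in High, with a log2 fold change of -2.40 (edgeR SE 0.24, adjusted p = 3.95e-05). Serpinb9, the inhibitor of granzyme B, was at 8.12, 12.3, 9.72 and 10.0 CPM in Low and 2.89, 1.78, 2.97 and 1.59 CPM in High, with a log2 fold change of -2.11 (edgeR, SE 0.26, adjusted p = 0.000128). The High values of both genes lay below every Low value. Serpinb8, an inhibitor of furin, was at 67.8, 41.4, 70.5 and 51.7 CPM in Low and 44.8, 40.1, 35.1 and 38.7 CPM in High. The groups overlapped through Female1 and Female2, and the call (log2 fold change -0.55, edgeR adjusted p = 0.0356) was lost with RLE size factors and without any 1 of 5 libraries, with adjusted p up to 0.105.

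Along chromosome 1 genes with the same call lay side by side. The 12 genes between Serpinb5 and Serpinb8 (GRCm38, chr1:106861173-107610484) were, in order, Serpinb5, Serpinb12, Serpinb13, Serpinb3a, Serpinb3d, Serpinb3b, Serpinb3c, Serpinb11, Serpinb7, Serpinb2, Serpinb10 and Serpinb8. The 8 tested genes from Serpinb5 to Serpinb7 all rose, Serpinb2 did not pass the test, and the last 2 fell. The nearest tested protein-coding gene on the side of Serpinb5, Vps4b at 64444 bases, did not pass (log2 fold change 0.40). On the side of Serpinb8 the nearest was Dsel, 4248217 bases away, which fell (-0.78). The cluster on chromosome 13 (GRCm38, chr13:32842092-34002794) held 15 members, of which 6 were tested, Serpinb1a rose, and Serpinb6b, Serpinb9 and Serpinb6a fell.

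**Figure D3:**
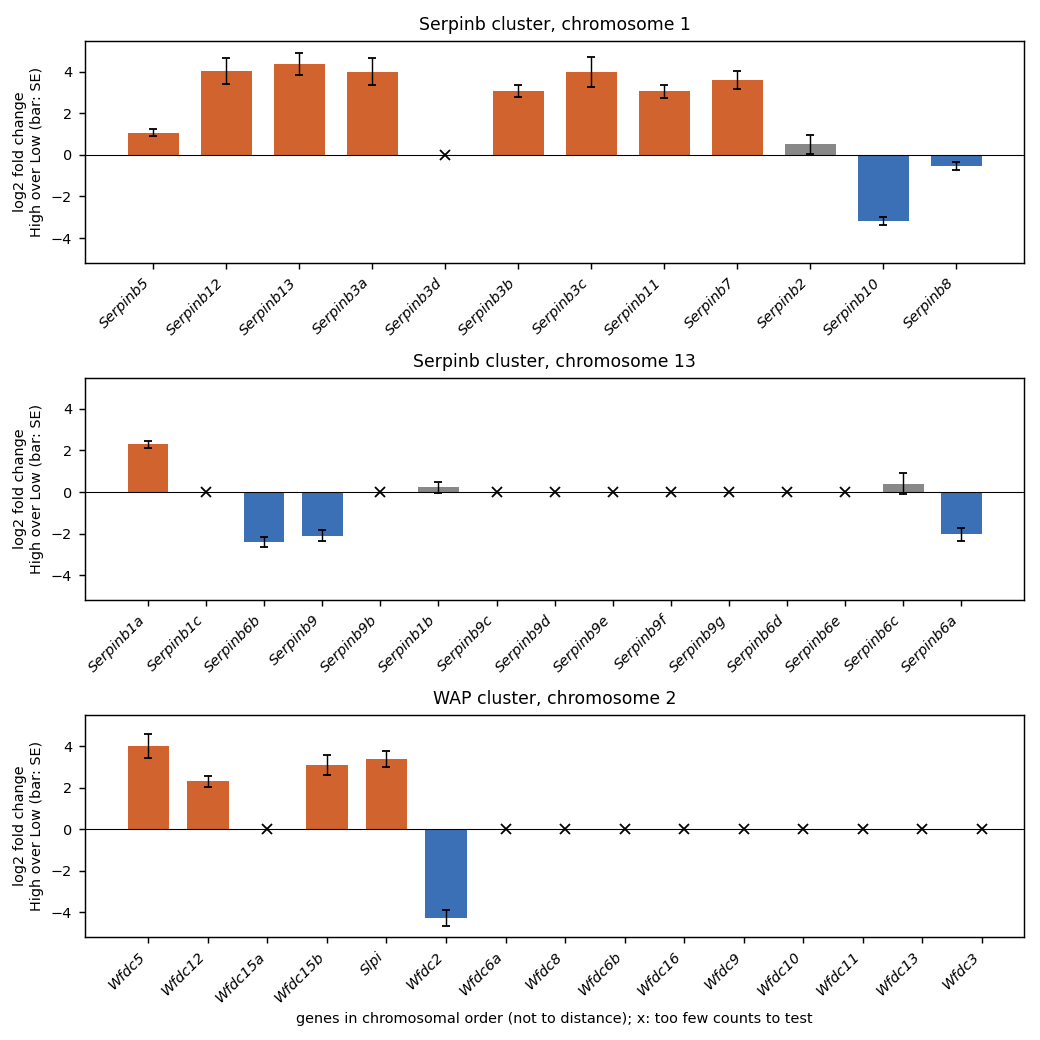
Log2 fold change of High over Low for the members of 3 gene clusters, in the order of the genes on the chromosome and not to distance. Bars carry standard errors and crosses mark genes with too few counts to test. On chromosome 1 a run of 8 tested genes is higher and the last 2 genes are lower, and on chromosome 2 Wfdc2, next after Slpi, is lower while the 4 tested genes before it are higher.

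Among the Kazal-type inhibitors, Spink5 carried nearly all transcripts. Spink5 encodes LEKTI, which blocks kallikreins and is lost in Netherton syndrome. It was at 174, 196, 78.1 and 246 CPM in Low (Female1, Female2, Male1, Male2) and 1551, 1886, 1681 and 1773 CPM in High. The lowest High library was several times the highest Low library, and the log2 fold change was 3.31 (SE 0.33, edgeR adjusted p = 4.00e-05), a 9.95-fold rise. Spink7 was the only other tested member, at 2.41 ± 0.652 CPM in Low and 2.16 ± 1.85 CPM in High, and did not pass the test (log2 fold change -0.20). It had 4.36, 1.52 and 2.75 CPM in the High libraries of Female1, Female2 and Male1 and was at 0 in that of Male2.

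In the WAP family 7 of 19 genes were tested, of which 5 rose and 1 fell. Slpi encodes the secretory leukocyte protease inhibitor, which blocks neutrophil elastase and cathepsin G. Its level was 264, 286, 110.2 and 397 CPM in Low and 3105, 2318, 2235 and 3302 CPM in High. All High libraries were above all Low libraries, and the log2 fold change was 3.38 (SE 0.38, edgeR adjusted p = 7.52e-05). Wfdc5 was at 12.4, 21.4, 4.01 and 32.6 CPM in Low and 214, 321, 204 and 409 CPM in High. It spread over an 8.14-fold range in Low, did not overlap between the fractions, and had a log2 fold change of 4.02 (edgeR, SE 0.58, adjusted p = 0.000329). The rarer Wfdc15b (0.226 ± 0.138 CPM in Low, 1.92 ± 0.694 in High) had a log2 fold change of 3.09 (edgeR, SE 0.48, adjusted p = 0.000542). Wfdc12 (0.985 ± 0.279 and 4.84 ± 1.13 CPM) rose with a log2 fold change of 2.30, and Wfdc21 (0.400 ± 0.106 and 1.18 ± 0.386 CPM) with one of 1.54. An antisense transcript, A730032A03Rik, covers 16.1% of the exons of Wfdc12 and 3.49% of those of Wfdc5. Wfdc17 was at 2.09 ± 0.910 CPM in Low and 1.58 ± 1.67 CPM in High and did not pass the test (log2 fold change -0.45).

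Wfdc2, a WAP protein of ductal and airway epithelia also known as HE4, moved the other way. It was at 87.8, 104.9, 123 and 125 CPM in Low and 6.56, 2.66, 3.13 and 10.5 CPM in High. The Low libraries were close together, every High library lay below them, and the log2 fold change of -4.29 (edgeR, SE 0.39, adjusted p = 2.64e-05) was the largest decrease among the inhibitors. The make-up of the WAP transcripts changed with it: Wfdc2 was 22.4% to 51.1% of their sum in Low and 0.100% to 0.281% in High, while Slpi was 45.9% to 71.3% in Low and 87.4% to 93.0% in High. Wfdc2 (GRCm38, chr2:164562413-164568510, plus strand) is the next member after Slpi (chr2:164354070-164389095, minus strand) in the WAP cluster of chromosome 2. Of its 15 members there 5 were tested, and Wfdc5, Wfdc12, Wfdc15b and Slpi rose while Wfdc2 fell. Among the genes beside that cluster, Kcns1 rose (log2 fold change 3.71) and Dnttip1 did not pass (-0.16).

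Of 8 tested cystatins and stefins 1 rose and none fell. Cst6 (cystatin M/E), which inhibits legumain and cathepsin L, was at 18.8, 16.7, 9.75 and 18.9 CPM in Low and 108, 95.0, 87.6 and 111 CPM in High. The fractions did not overlap, and the log2 fold change was 2.66 (SE 0.22, edgeR adjusted p = 1.83e-05). Cstb (stefin B), a cytosolic cathepsin inhibitor, was at 234, 142, 229 and 202 CPM in Low and 276, 215, 218 and 216 CPM in High. Cst3 (cystatin C), a secreted one, was at 143, 115, 130 and 137 CPM in Low and 164, 135, 145 and 173 CPM in High. Both overlapped between the fractions. The log2 fold change was 0.20 for Cstb (SE 0.19, edgeR adjusted p = 0.435) and 0.23 for Cst3 (SE 0.14, edgeR adjusted p = 0.220), neither of which passed, and with total counts only the estimates were -0.35 and -0.33.

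The 5 tested members among the stefin A genes on chromosome 16 (Stfa1, Stfa2, Stfa3, Stfa2l1 and Cstdc4), related to a cathepsin inhibitor of keratinocytes and neutrophils, did not pass the test. Stfa3 was at 70.8, 53.0, 33.3 and 37.6 CPM in Low and 89.3, 33.8, 59.6 and 2.31 CPM in High. The High library of Male2 lay far below the other 7, and the log2 fold change was -0.10 (SE 0.67, edgeR adjusted p = 0.925). Stfa1 (7.01 ± 7.63 CPM in Low, 4.49 ± 2.45 in High, log2 fold change -0.38), Stfa2 (4.38 ± 1.91 and 3.51 ± 2.76 CPM, -0.31), Stfa2l1 (0.426 ± 0.245 and 0.231 ± 0.243 CPM, -0.70) and Cstdc4 (0.521 ± 0.285 and 0.339 ± 0.361 CPM, -0.50) followed. Of the 50-base stretches 26.9% of Stfa1, 24.6% of Stfa2l1 and 15.9% of Stfa2 occur in other transcripts, so the split among them is uncertain. Summed, the 5 genes were at 97.6, 63.0, 39.6 and 43.7 CPM in Low and 104, 41.8, 70.3 and 3.45 CPM in High.

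The High library of Male2 held the lowest value of 8 of the 12 inhibitors that did not pass the test (Wfdc17, Serpinb6c, Spink7 and the 5 stefins) and of 2 of the 24 that did. Wfdc17, Spink7, Stfa2l1 and Cstdc4 had 0 counts there. Of the leukocyte markers 15 were tested between the fractions, of which 3 rose (Cd68, Cxcr2 and Cd52) and 1 fell (Cd207), and of 8 fibroblast markers 1 fell. In the High library of Male2, 6 of 20 leukocyte markers were at 0 (Cd3e, Cd3g, Nkg7, Csf3r, Mpo and Ngp), and the list summed to 47.5 CPM, against 84.3 to 172 CPM in the other High libraries and 78.4 to 125 CPM in Low. The 3 that rose made up most of that sum, and the other 17, a split made after their values were seen, summed to 7.10 CPM there, against 39.3 to 116 CPM in the other High libraries and 69.0 to 113 CPM in Low. None of the fibroblast markers was at 0, and they summed to 39.2 CPM, against 158 to 495 CPM in the other High libraries and 328 to 515 CPM in Low. Endothelial markers (0 of 7 passed the test) summed to 2.16 CPM there, against 12.2 to 37.2 CPM in the other High libraries, and muscle markers (1 of 8 fell) to 4.73 CPM, against 19.9 to 61.3 CPM. Their part in the values of these inhibitors was not tested. Without that library the log2 fold change was 0.30 for Stfa3, 0.05 for Stfa2 and 0.22 for Spink7, with adjusted p of 0.463, 0.919 and 0.653 by edgeR.

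**Figure D4:**
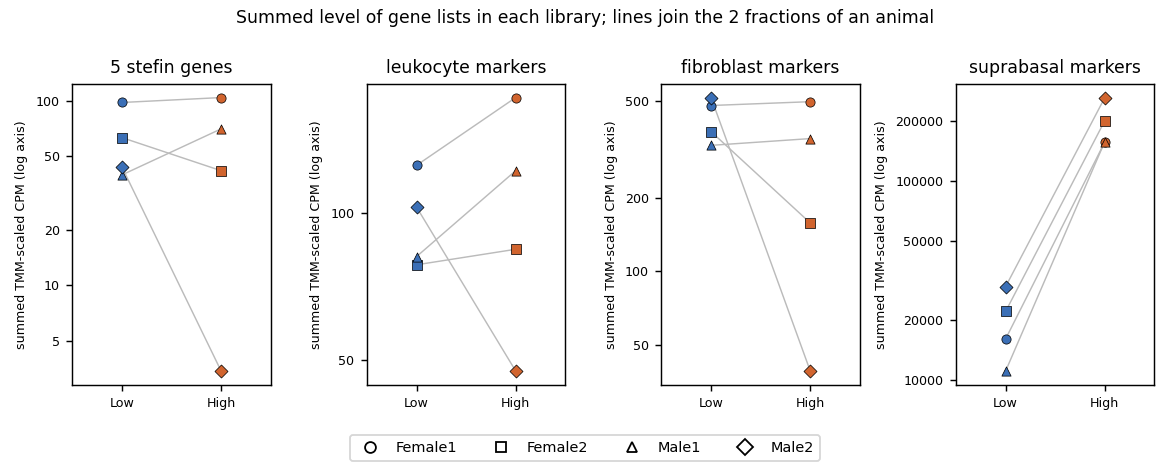
Summed TMM-scaled CPM, on log axes, of the 5 stefin genes and of the leukocyte, fibroblast and suprabasal keratinocyte marker lists in each library. Symbols mark the animals and lines join the 2 fractions of an animal. The High library of Male2 is lowest in the first 3 panels (3.45 CPM for the stefins) and highest in the fourth.

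Both Spint genes rose. Spint1, the membrane-bound Kunitz inhibitor of matriptase, was at 90.4, 55.2, 67.3 and 109.8 CPM in Low and 461, 547, 537 and 768 CPM in High. The fractions did not overlap, and the log2 fold change was 2.84 (SE 0.24, edgeR adjusted p = 2.11e-05). Spint2, its paralog with a wider range of targets, was at 233, 256, 248.6 and 300 CPM in Low and 350, 391, 360 and 501 CPM in High. It too did not overlap, with a log2 fold change of 0.62 (edgeR, SE 0.16, adjusted p = 0.00953). With total counts only the rise of Spint2 was 0.045 and did not pass (edgeR adjusted p = 0.751). Spint1 was 17.7% to 28.0% of the transcripts of the pair in Low and 56.9% to 60.5% in High.

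For 15 of the 18 members that rose (40.2% of the 4055 genes that rose over the whole table) the ratio of the highest to the lowest library was wider in Low than in High, the exceptions being Serpinb5, Spint2 and Wfdc21. The widest was Serpinb3c, with 17.3-fold in Low and 1.75-fold in High, followed by Serpinb3a (10.2-fold and 1.69-fold) and Serpinb12 (10.03-fold and 1.498-fold). Of the 4055 genes, 2306 rose at least 2-fold, as did 17 of the 18 members. The wider ratio in Low is not particular to inhibitors. Each suprabasal marker that rose had it too, such as Lor (52.4 to 596 CPM in Low, 3768 to 6568 CPM in High). Of the 18, 13 were lowest in the Low library of Male1 (36.6% of all genes that rose) and 16 highest in that of Male2 (1824 of the 4055). The summed suprabasal markers in the Low libraries stood in the order Male1, Female1, Female2 and Male2 (11080, 16050, 22080 and 29420 CPM), and 9 of the 18 had this whole order (15.5% of all genes that rose): Serpinb12, Serpinb3a, Serpinb3b, Serpinb3c, Serpinb11, Serpinb7, Wfdc5, Slpi and Spink5. The part of suprabasal transcripts in these levels was not tested. Without the Low library of Male2 the log2 fold change was 5.11 for Serpinb3c, 4.97 for Serpinb12, 4.93 for Serpinb3a and 4.75 for Wfdc5, and all 4 stayed called whichever single library was left out.

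The proteases that these families act on were taken from a list of 37 genes, 1 of them (F2rl1) a receptor that they cleave. Of 31 tested, 16 rose (23.4% of all tested genes), 4 fell (25.3%) and 11 did not pass, and their median log2 fold change was 0.80. With total counts only the calls were 13 higher and 7 lower, where 2194 of all 17344 tested genes were higher and 8514 lower. Of the 9 listed kallikreins, some of them targets of Spink5, 7 rose. Klk10 went from 151 ± 31.6 to 829 ± 177 CPM, Klk14 from 36.9 ± 17.0 to 358 ± 59.2 CPM and Klk13 from 42.1 ± 12.04 to 290 ± 50.1 CPM, with log2 fold changes of 2.45, 3.28 and 2.80. Klk7 and Klk6 did not pass. Klk7 was at 76.1, 26.1, 49.1 and 2.67 CPM in the High libraries of Female1, Female2, Male1 and Male2 (40.0 ± 13.04 CPM in Low), and Klk6 at 42.1, 14.2, 28.8 and 0.360 CPM (22.7 ± 6.59 CPM in Low), so that the library of Male2 lay far below the others. St14, which encodes matriptase, a target of Spint1, rose from 128 ± 48.5 to 271 ± 58.3 CPM with a log2 fold change of 1.08. Prss8, which encodes prostasin, had a log2 fold change of 1.76. Among the cathepsins that cystatins block, Ctsb rose with a log2 fold change of 0.80, while Ctsl (102 ± 12.6 and 101 ± 19.7 CPM), Ctsh, Ctsk, Ctss and Ctsz did not pass. With the animal as a replicate block Ctsz passed, with a log2 fold change of -0.36 (edgeR adjusted p = 0.0205, against 0.0949 without the block). Ctsk and Ctss were also far lower in the High library of Male2 (0.154 and 0.257 CPM) than in the other High libraries (5.44 to 16.9 and 7.10 to 19.2 CPM). Plau, the target of Serpinb2, fell with a log2 fold change of -0.49, as did Tmprss2 (-2.10), Hpn (-2.47) and F2rl1 (-0.98). The leukocyte proteases Elane, Ctsg, Prtn3, Gzma and Gzmb, against which Slpi, Serpinb1a, Serpinb6a and Serpinb9 are known, were too low to test in these libraries, at means of 0.110 CPM or less.

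No inhibitor passed the test for a difference between High and Low that depends on sex. The edgeR interaction test called 0 of 36 members and 0 of 17344 genes, with 0 members and 19 genes (0.11%) at an unadjusted p under 0.05. With DESeq2 it called 0 members, also with 0 at an unadjusted p under 0.05. With 2 animals per sex the test has little reach: on simulated counts it recovered 0% of genes whose effect differed by 1.5 on the log2 scale and 72.3% of those that differed by 3. The simulation drew libraries independently, without pairs and without the many changes between High and Low. The 0.11% from the edgeR interaction test is less than the share of 0.05 that chance alone would give. The simulated recovery may therefore not hold for these libraries.

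The 40 members that the filter on low counts left out had at most 13 counts in any library. Without that filter the 21 with counts could be tested, and 1 passed: Spink2, named after its values were seen, with 4, 0, 0 and 3 counts in Low and 13, 7, 6 and 10 in High (log2 fold change 2.73, SE 0.71, edgeR adjusted p = 0.000773). The 21 with counts were Serpinb1c, Spink2 and Wfdc1 (13 at most), Serpinb9e (12), Spink12 (10), Serpinb3d (8), Wfdc3 (7), Cst7, Spink14 and Wfdc18 (5), Spink1 and Spink4 (4), Serpinb6d and Serpinb9b (3), Serpinb9f, Spink6, Spink10 and Wfdc9 (2) and Serpinb9d, Serpinb9h and Wfdc8 (1). The 19 at 0 in every library were Cst8, Cst9, Cst10, Cst11, Cst12, Cst13, Wfdc6a, Wfdc6b, Wfdc10, Wfdc11, Wfdc13, Wfdc15a, Wfdc16, Serpinb6e, Serpinb9c, Serpinb9g, Spink8, Spink11 and Spink13. A count of 0 says that they were not detectable at this depth, not that they are absent.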

How the data were processed

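The authors deposited 1 table of raw read counts per gene symbol for 8 libraries, whole numbers whose totals differ between libraries. The submitters' processing notes name STAR 2.7.3, DESeq2 and GRCm38. The counting tool, the annotation and the strandedness are not given in the sources used here. Columns were assigned to the 8 samples through their names, and groups follow the labelled Cyto-ID fraction.

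The test was edgeR 4.0.16 in R 4.3.3 (filterByExpr, TMM, glmQLFit and glmQLFTest, sex as a covariate, two-sided, adjusted p under 0.05). The SE is the fold change over the square root of F. Libraries of 1 fraction differed by more than sampling noise in every pair. The labels name the animals, and 1 suspension per animal was sorted into both fractions, so libraries of 1 animal are pairs. Their deviations from the fraction means correlated across genes at -0.02 to 0.43 (other animals -0.37 to 0.35).

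Members and lists were chosen with earlier results of these data known. Every member with a mean of at least 10 CPM in a fraction is given in each library. SE and adjusted p are given for the 3 largest changes per family and direction, and for members at that level that did not pass the test. Values of Stfa2 and Spink7 without a library were added because that library stood apart, and for Serpinb8 the adjusted p because its call was not stable. Of the 76 symbols, 74 matched 1 gene model of GENCODE M21 (GRCm38) and 56 a RefSeq promoter. Promoters on chromosome 18, which holds Spink5 and Spink7, were left out of that match.

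Alternatives were RLE size factors, total counts only, testing every gene with a read, a stricter minimum of 10 counts per library, DESeq2 1.42.0, limma-voom (limma 3.58.1), robust dispersion, leaving out the covariate, a replicate block for the animal, and each library left out. Leaving out both libraries of Female2 was added after the data were seen. On simulated counts for 16926 genes, the fit recovered 73.1% of 193 genes changed by 1.5 on the log2 scale and called 8 others. Precision covers the spread between animals and counting error.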

Additional observations from a re-analysis of the deposited data

Results flagged for a closer look

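Of 82 groups of 4 libraries, 5 held 1 library far from the other 3 by Dixon's test, and chance marks about 1 group in 20. The Cstb level in the High library of Female1 was 275.9 CPM, above 215.1, 218.2 and 216.4 CPM in the other High libraries. The summed clade B serpins in the Low library of Female2 were 1482 CPM, below 3467, 3239 and 3147 CPM in the other Low libraries. Serpinb2 was at 361 CPM in that library and at 1659 to 2411 CPM in the others. The summed Spint genes in the Low library of Male2 were 409.6 CPM, above 323.1, 311.7 and 315.9 CPM. The summed gastric and columnar epithelium markers were 19.85 CPM in the Low library of Female2, where the others were at 0.664 to 1.39 CPM, and 117.3 CPM in the High library of the same animal, where the others were at 1.08 to 1.39 CPM. All 24 inhibitor calls remained without both libraries of Female2.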

How the results depend on the processing

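Every alternative called 21 to 25 inhibitors, against 24, the 25 without a filter on low counts, where Spink2 was called higher in addition. The interaction with sex called 0 in each of the alternatives it was run under, with 0 to 7 members at an unadjusted p under 0.05 (7 without the Low library of Male2, 5 without the High library of Male1). At least 10 counts in every library left 27 testable and 21 called. Of 36 tested members, 25 kept direction and call in each of up to 18 alternatives, and the 2 that lost a call in any were Serpinb8 (log2 fold change -0.47 with RLE size factors) and Spint2 (0.045 with total counts only). With the animal as a replicate block the same 24 inhibitors were called (18 higher, 6 lower), 9336 of all genes (53.8%), 21 proteases (Ctsz in addition) and 0 by sex, and the block changed no call of an inhibitor. Leaving out 1 library gave 23 to 24 inhibitors, 7269 to 8106 genes and 19 to 20 proteases. The 9 members whose sign turned in any setting had not passed the test, and the cause was not tested. With total counts only the log2 fold change was -0.037 for Serpinb2, -0.33 for Cst3, -0.35 for Cstb, -0.35 for Serpinb1b and -0.083 for Serpinb6c. Without the High library of Male1 it was -0.22 for Serpinb6c, and without the Low library of Female1 0.33 for Stfa1. Without the High library of Male2 it was 0.053 for Stfa2, 0.30 for Stfa3 and 0.22 for Spink7. Without the High library of Female2 it was 0.11 for Stfa3 and 0.0017 for Spink7. For Stfa3 it was 0.015 without the Low library of Male2 and 0.050 without both libraries of Female2. Over the alternatives that left out 1 library it ran from -0.22 to 0.68 for Serpinb6c, -1.14 to 0.33 for Stfa1, -1.13 to 0.053 for Stfa2, -1.11 to 0.30 for Stfa3 and -1.01 to 0.22 for Spink7. It also ran from -1.65 to -0.21 for Stfa2l1, -1.27 to -0.072 for Cstdc4 and -1.18 to -0.045 for Wfdc17, whose signs did not turn.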

Other observations

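The stefin family holds 9 more genes in the table whose symbols fall outside the inhibitor list (Csta1 to Csta3 and Cstdc1, Cstdc2, Cstdc3, Cstdc5, Cstdc6 and Cstdc7), of which 5 were tested. They were looked up after their values had been seen. Csta1 was at 68.4, 52.2, 32.6 and 40.2 CPM in the Low libraries of Female1, Female2, Male1 and Male2 and at 131, 96.4, 96.8 and 52.3 CPM in their High libraries. It was higher in High in 4 of 4 animals, with overlapping groups, a log2 fold change of 0.98 (SE 0.21) and an edgeR adjusted p of 0.00386. Cstdc5 was at 183, 140.2, 89.1 and 91.2 CPM in Low and 215, 82.2, 144 and 2.73 CPM in High, with the High library of Male2 far below the others, and did not pass the test (log2 fold change -0.21, edgeR adjusted p = 0.859). Csta3, Cstdc6 and Cstdc7 did not pass either.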
